A study of Mus musculus with 9 samples.

Results

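Transcripts of 42 genes of intraflagellar transport and of the ciliary gate were followed in sorted cells of the newborn mouse retina. The genes were chosen by name, with earlier results of these data known. They were 5 genes of the IFT-A complex, 9 of the IFT-B complex, 6 motor subunits and 16 genes of the transition zone and gate. The other 6 were genes of the ciliary membrane and of carriers for lipidated proteins. Of the 42, 40 were analysed, among 18193 genes tested. Each was represented by the probe set, annotated to that symbol alone, with the highest mean over the 9 arrays. Rpgrip1l and Arl13b are not analysed here.

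The 9 arrays came from 3 groups of 3 biological replicates. Retinae of 6 to 8 mice, on a C57BL/6J-129/Ola background, went into every replicate. GFP-positive and GFP-negative cells of 1 reporter line, rhoGFP (rhoEGFP in the series' design), were sorted at postnatal day 4 (P4). GFP-positive cells of a second line, nestinGFP (pNestin-GFP in the design), were sorted at postnatal day 0 (P0). Rhodopsin is the rod visual pigment and nestin a filament protein of neural progenitors. The sources used here do not state the regulatory sequence behind the rhodopsin reporter, the sort gates or the purity. The comparison of the P4 fractions asks which transcripts are enriched in rod-reporter cells at 1 age, while that with the P0 cells changes line, age and population together, so their parts cannot be told apart.

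A rod carries its light-sensing outer segment on a modified primary cilium. Everything the outer segment contains is made in the cell body and has to cross the connecting cilium, which corresponds to the transition zone of other cilia. IFT-B trains driven by kinesin move outward, IFT-A and cytoplasmic dynein bring material back, transition zone proteins form a gate at the base, and soluble carriers ferry lipid-modified proteins across it. At the ages studied, rods are being born and their outer segments have not yet grown. Loss of many of these genes causes retinal degeneration, alone or as part of a syndrome with kidney or brain disease.

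The sort labels were checked against marker genes. All 13 rod marker genes analysed were higher in the rhoGFP-positive cells in both comparisons, and their mean signal per array ran from 11.8 to 12.1 (log2) there, from 8.17 to 9.08 in the rhoGFP-negative and from 7.17 to 8.50 in the nestinGFP-positive cells. Of 10 progenitor markers 9 were lower in the rhoGFP-positive cells in both comparisons; the exception, Nes, was at -0.56 against the rhoGFP-negative and -0.55 against the nestinGFP-positive cells. Of 13 cell cycle markers 10 were lower against the rhoGFP-negative and 13 against the nestinGFP-positive cells, with array means of 7.30 to 8.30 on the rhoGFP-positive arrays, 9.05 to 10.6 on the rhoGFP-negative arrays and 10.8 to 10.9 on the nestinGFP-positive arrays. In RNA of sorted pools, fewer cells that carry a transcript and less of it per cell cannot be told apart. The actin 3' minus 5' signal, a sign of RNA integrity, was 0.91 ± 0.064 (log2, SD, n = 3) on the rhoGFP-positive arrays, 0.65 ± 0.021 on the rhoGFP-negative arrays and 0.67 ± 0.30 on the nestinGFP-positive arrays, and its part in the results was not tested. Replicate 1 arrays carried a higher 18S ribosomal control signal, 12.1 to 13.6 against 9.65 to 10.4 on the 6 others, and results without these 3 arrays follow the counts. Markers of cones, which also carry a connecting cilium, had array means of 8.21 to 8.45 on the rhoGFP-positive arrays, 7.60 to 7.91 on the rhoGFP-negative arrays and 7.33 to 7.56 on the nestinGFP-positive arrays. Of 10 cone markers 2, Rxrg and Cngb3, were higher between the P4 fractions and 5 against the nestinGFP-positive cells, and the part of cones in the results was not tested. Lower in the rhoGFP-positive cells were 9 of 11 amacrine and ganglion cell markers between the P4 fractions (7 against the nestinGFP-positive cells) and 4 of 8 endothelial markers in both comparisons. Of 8 pigment epithelium markers 2, Tyrp1 and Rgr, were higher in both comparisons and 1, Rlbp1, was lower between the P4 fractions. The mean of 8 microglia markers was 5.29 to 6.47 on the rhoGFP-positive arrays, 5.14 to 5.54 on the rhoGFP-negative arrays and 4.80 to 5.22 on the nestinGFP-positive arrays. Against the nestinGFP-positive cells 1 of the 8, Tyrobp, was called higher; the part of these cells in the results was not tested.

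In the rhoGFP-positive cells at P4 the genes of this transport system were, for the most part, higher than in the GFP-negative cells of the same line and age. The transition zone genes Cep290 (4.17-fold) and Rpgrip1 (3.32-fold) differed most. At an adjusted p below 0.05 and a log2 difference of at least 1 (2-fold), 10 of 40 genes rose and 0 fell, where 3.61% of all genes rose and 7.32% fell. Shares of all genes, here and below, count dim genes too, while 1 of the 40 lay below the 40th percentile of mean signal. At an unadjusted p below 0.05, 29 of the 40 were higher and 2 lower in limma, where 2675 and 3463 of all 18193 genes were. With no minimum size, an adjusted p below 0.05 was reached by 27 of 40 that were higher and 0 that were lower, against 10.1% and 14.2% of all genes. With the replicate number as a block, 29 of 40 were higher and 2, Kif3a and Tulp3, lower at that p, against 13.8% and 18.5% of all genes. The median log2 difference of the 40 was 0.77 against 0.01 for all genes, and 36 of the 40 lay above 0, where 51.5% of all genes did. Without the 3 replicate 1 arrays 11 rose, 0 fell and the median was 0.72.

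Set against the nestinGFP-positive cells at P0, 11 of 40 genes rose and 1, Tulp3, fell, where 5.06% of all genes rose and 10.5% fell. The median difference was 0.60, against 0.06 for all genes, and 33 of the 40 differences lay above 0, where 56.9% of all genes did. Without the replicate 1 arrays 10 rose, 1 fell and the median was 0.63. With no minimum size, 26 higher and 2 lower genes had an adjusted p below 0.05, where 16% and 19.8% of all genes were. Between the rhoGFP-negative and nestinGFP-positive cells Unc119 was the 1 gene of the 40 called higher and 0 were called lower by limma, where 0.385% of all genes rose and 0.605% fell. At an unadjusted p below 0.05 there, 3 of the 40 were higher and 2 lower in limma, where 1502 and 1783 of all 18193 genes were. At an adjusted p below 0.05 with no minimum size 2 were higher and 0 lower, against 0.951% and 1.08% of all genes. With the block, 2 were higher and 1, Tulp3, lower at that p, against 3.9% and 6.89% of all genes. The 3 comparisons share arrays in pairs, so they are given side by side and not as separate evidence.

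**Figure D1:**
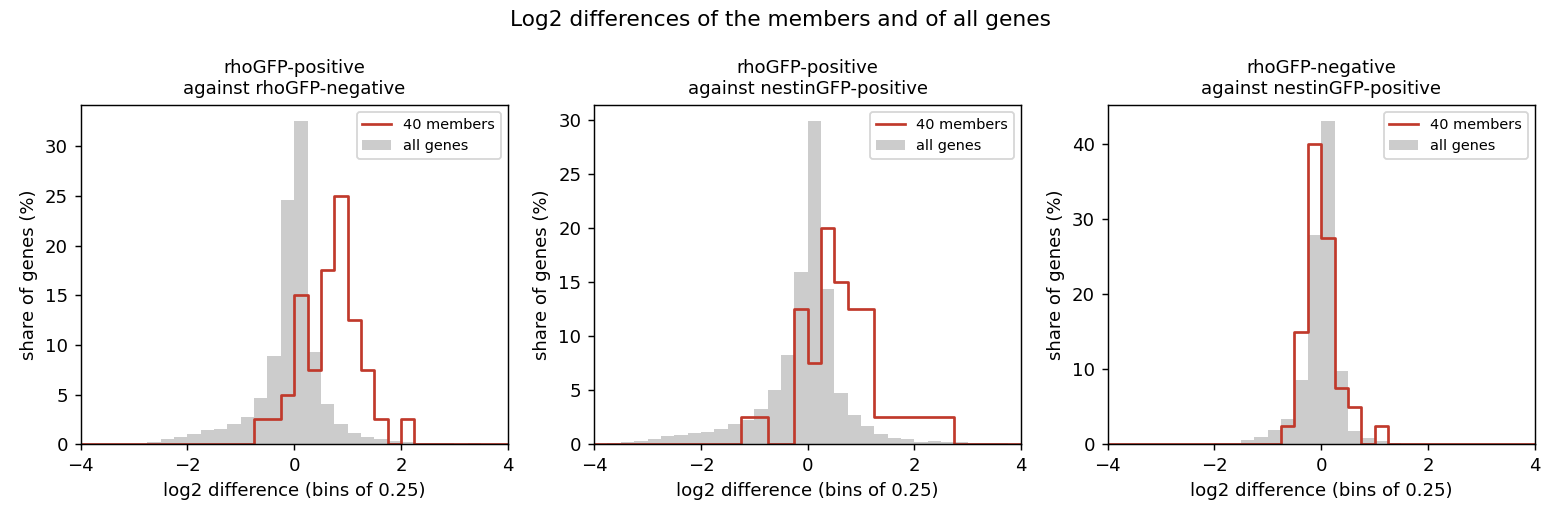
Share of genes (%, vertical axis) by log2 difference (horizontal axis, bins of 0.25) for the 40 genes of intraflagellar transport and the gate (line) and for all 18193 genes (bars) in the 3 comparisons. The line lies to the right of the bars in the 2 comparisons of the rhoGFP-positive cells, with medians of 0.77 and 0.60, and over the bars in the third, with a median of -0.08.

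By its median, the set placed the rhoGFP-positive arrays above all 6 others, while the other groups overlapped with each other. On 25 of 40 genes the 3 rhoGFP-positive arrays lay above all 6 others, against 14.8% of all genes, and on 0 of 40 they lay below all 6, against 16.9%. The mean was highest in the rhoGFP-positive cells for 33 of the 40 genes, against 45.6% of all genes. It was highest in the nestinGFP-positive cells for 6 (Ift140, Ift27, Ift172, Kif3a, Tulp3 and Inpp5e) and in the rhoGFP-negative cells for 1, Ift52. Of all 18193 genes, 5783 and 4109 were highest in these 2 groups. Taken as the median deviation of the 40 genes from each gene's own mean over the 9 arrays, the rhoGFP-positive arrays stood at 0.48, 0.48 and 0.44 log2 units, the rhoGFP-negative arrays at -0.26, -0.29 and -0.18, and the nestinGFP-positive arrays at -0.24, -0.17 and -0.13. Within replicate numbers 1, 2 and 3 the median difference between the P4 fractions was 0.74, 0.75 and 0.69, with 35 of 40 genes above 0 in each.

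**Figure D2:**
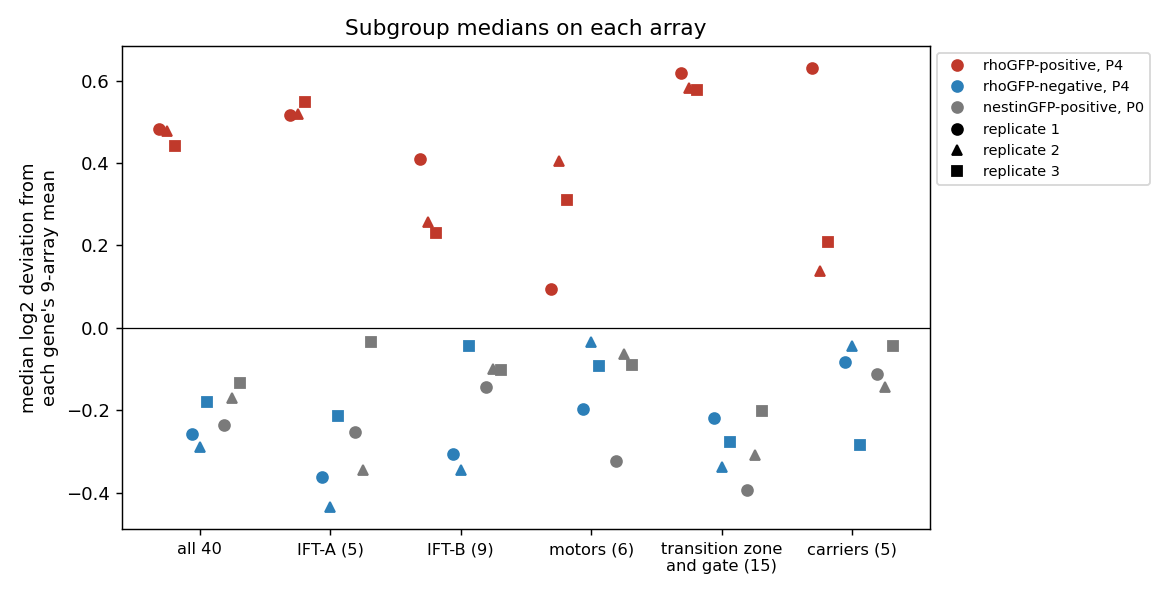
Median log2 deviation from each gene's 9-array mean (vertical axis) on every array, for all 40 genes and for each subgroup (number of genes in brackets); colours mark the sorted groups and symbols the replicate numbers. The 3 rhoGFP-positive arrays lie above 0 in every subgroup and the 6 other arrays below 0; the transition zone genes (0.58 to 0.62) stand higher on the rhoGFP-positive arrays than the IFT-B genes (0.23 to 0.41).

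**Figure D3:**
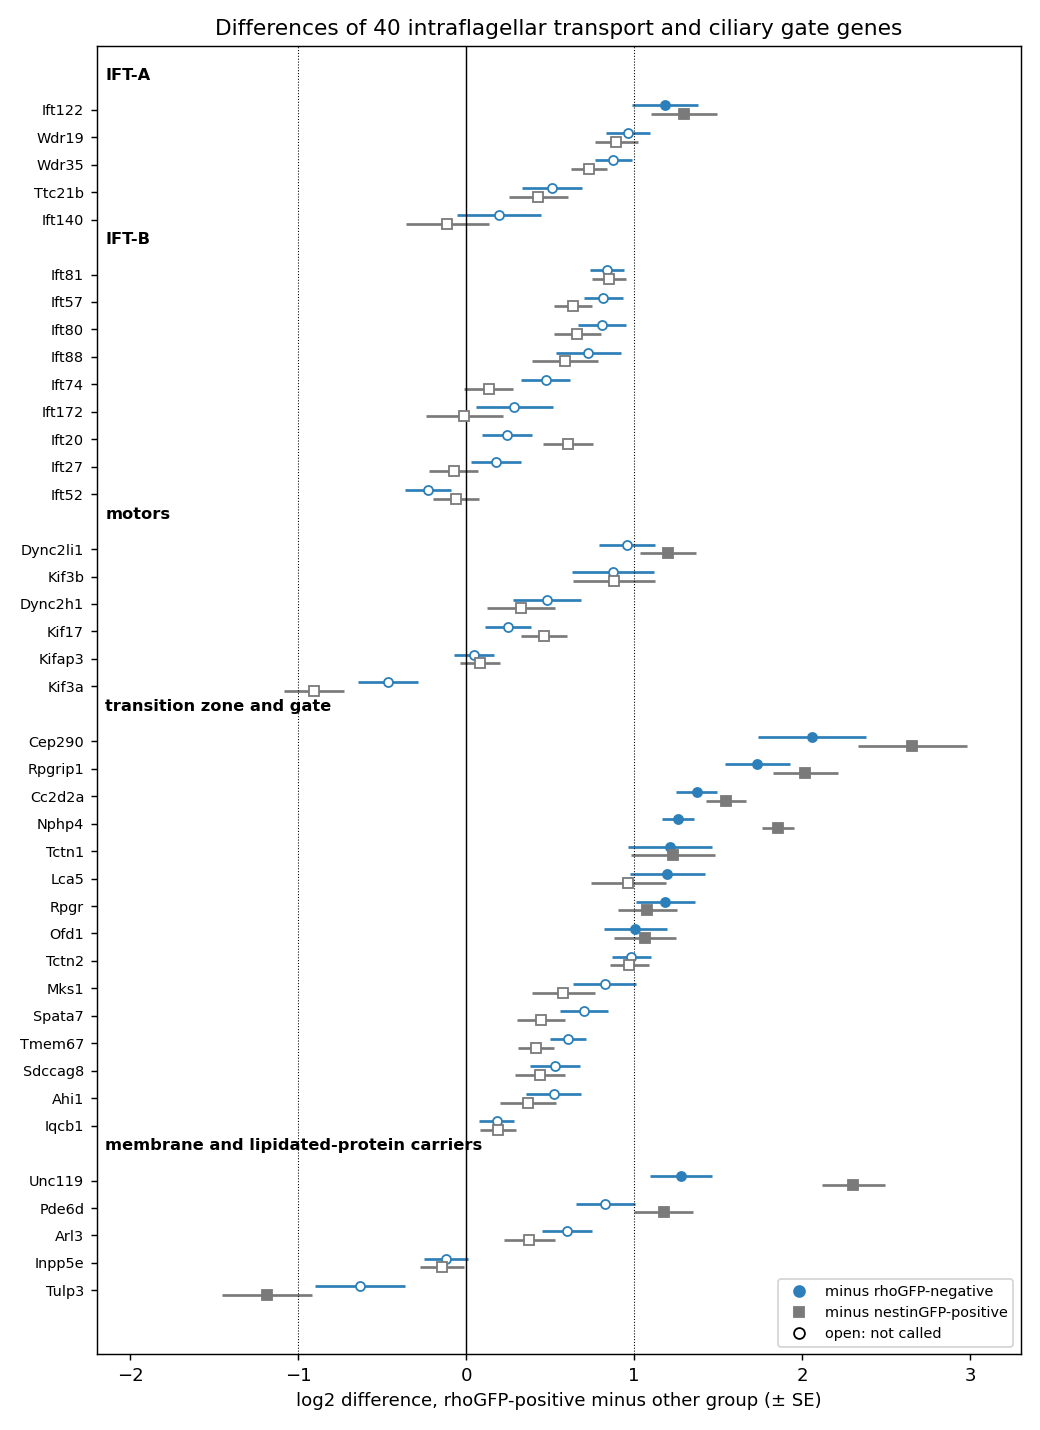
Log2 difference (horizontal axis) of each of the 40 genes between the rhoGFP-positive cells and the rhoGFP-negative cells (circles) or the nestinGFP-positive cells (squares), with limma's standard error. Filled symbols passed an adjusted p below 0.05 and an absolute difference of at least 1 (dotted lines); most filled symbols belong to the transition zone and gate, 8 of 15 against the rhoGFP-negative cells.

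Transition zone and gate genes held 8 of the 10 rises between the P4 fractions: 8 of 15 rose, 0 fell, the median log2 difference stood at 1.01, and 14 of 15 were higher at an adjusted p below 0.05. Against the nestinGFP-positive cells 7 of 15 rose, with a median of 0.97. Cep290 encodes a large coiled-coil protein of the links between microtubules and membrane in the transition zone. It stood at 9.77, 9.66 and 9.67 (log2) on the 3 rhoGFP-positive arrays, at 8.38, 7.59 and 6.95 on the rhoGFP-negative and at 7.53, 6.85 and 6.75 on the nestinGFP-positive arrays. The rhoGFP-positive arrays were nearly equal and above all others, while the rhoGFP-negative arrays spread over more than a log2 unit. The difference was 2.06 ± 0.32 (SE, limma adjusted p = 0.00116) against the rhoGFP-negative and 2.66 ± 0.32 (6.30-fold, adjusted p = 0.000148) against the nestinGFP-positive cells.

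Rpgrip1 anchors the guanine nucleotide exchange factor-like protein Rpgr in the connecting cilium of photoreceptors. Its values were 12.80, 13.13 and 13.17 on the rhoGFP-positive arrays, 11.57, 11.39 and 10.94 on the rhoGFP-negative arrays and 11.13, 10.70 and 11.20 on the nestinGFP-positive arrays. The rhoGFP-positive arrays lay apart from the other groups, which overlapped with each other (1.73 ± 0.19, limma adjusted p = 0.000149, and 2.02 ± 0.19, adjusted p = 3.49e-05). Rpgr itself, on the X chromosome, read 8.86, 9.11 and 9.16 on the rhoGFP-positive arrays, 8.09, 7.95 and 7.52 on the rhoGFP-negative arrays and 8.23, 7.79 and 7.87 on the nestinGFP-positive arrays. It too was higher on every rhoGFP-positive array, by 1.19 ± 0.17 and 1.08 ± 0.17. Against the nestinGFP-positive cells Rpgr was at 0.99, under the 2-fold minimum, when their replicate 2 was left out.

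Nphp4, a scaffold of the nephronophthisis module at the ciliary gate, stood at 9.51, 9.58 and 9.48 on the rhoGFP-positive arrays, 8.34, 8.27 and 8.17 on the rhoGFP-negative arrays and 7.64, 7.60 and 7.74 on the nestinGFP-positive arrays. The 3 groups did not overlap. Besides its rises of 1.26 ± 0.10 (limma adjusted p = 1.56e-05) and 1.86 ± 0.10 (adjusted p = 1.46e-06), it was higher by 0.60 ± 0.10 in the rhoGFP-negative than in the nestinGFP-positive cells (adjusted p = 0.0217), below the 2-fold minimum. Averaging its 2 probe sets gave a P4 difference of 0.75, no longer called.

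The tectonic and Meckel module is a membrane-associated complex of the transition zone. Cc2d2a, a C2-domain protein of the module, stood at 9.94, 10.30 and 10.32 on the rhoGFP-positive arrays, 8.89, 8.74 and 8.82 on the rhoGFP-negative arrays and 8.63, 8.61 and 8.68 on the nestinGFP-positive arrays, rises of 1.37 ± 0.12 and 1.55 ± 0.12. Tctn1, a tectonic, gave 9.50, 10.41 and 10.42 on the rhoGFP-positive arrays, 8.63, 9.04 and 9.04 on the rhoGFP-negative arrays and 8.62, 8.89 and 9.13 on the nestinGFP-positive arrays. Replicate 1 was the low array of each group for Tctn1, and the rhoGFP-positive arrays still lay above the rest (1.21 ± 0.25, limma adjusted p = 0.00585, and 1.23 ± 0.25). Tctn2 was at 0.98 ± 0.12 and 0.97 ± 0.12, Mks1 at 0.82 and 0.58 and Tmem67, the membrane receptor-like protein meckelin, at 0.61 and 0.42. These 3 had an adjusted p below 0.05 in both comparisons and were under the 2-fold minimum, and Tmem67 was the 1 gene of the 40 below the 40th percentile of mean signal.

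Lca5 encodes lebercilin, which binds the transport machinery along the photoreceptor axoneme. It read 9.61, 9.08 and 8.96 on the rhoGFP-positive arrays, 8.36, 7.75 and 7.95 on the rhoGFP-negative arrays and 8.58, 8.19 and 7.98 on the nestinGFP-positive arrays. Its rise against the rhoGFP-negative cells was 1.20 ± 0.22 (limma adjusted p = 0.00333), and it was at 0.97 ± 0.22 against the nestinGFP-positive cells. The first call was lost without rhoGFP-positive replicate 1, at 0.998, and on averaging its 2 probe sets, at 0.98. Ofd1, a protein of the distal centriole from which the cilium grows, gave 8.31, 7.85 and 7.81 on the rhoGFP-positive arrays, 7.31, 6.99 and 6.65 on the rhoGFP-negative arrays and 6.91, 7.05 and 6.82 on the nestinGFP-positive arrays. At 1.01 ± 0.19 and 1.06 ± 0.19 it lay at the threshold, and it dropped under it without rhoGFP-positive replicate 1 (0.84 and 0.90), without rhoGFP-negative replicate 3 (0.84 in the first comparison), after cyclic loess (0.95 in the first) and without all 3 replicate 1 arrays (0.89 in the second). The other gate genes were at 0.70 for Spata7, 0.53 for Sdccag8, 0.52 for Ahi1 and 0.18 for Iqcb1 between the P4 fractions, and the first 3 had an adjusted p below 0.05.

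**Figure D4:**
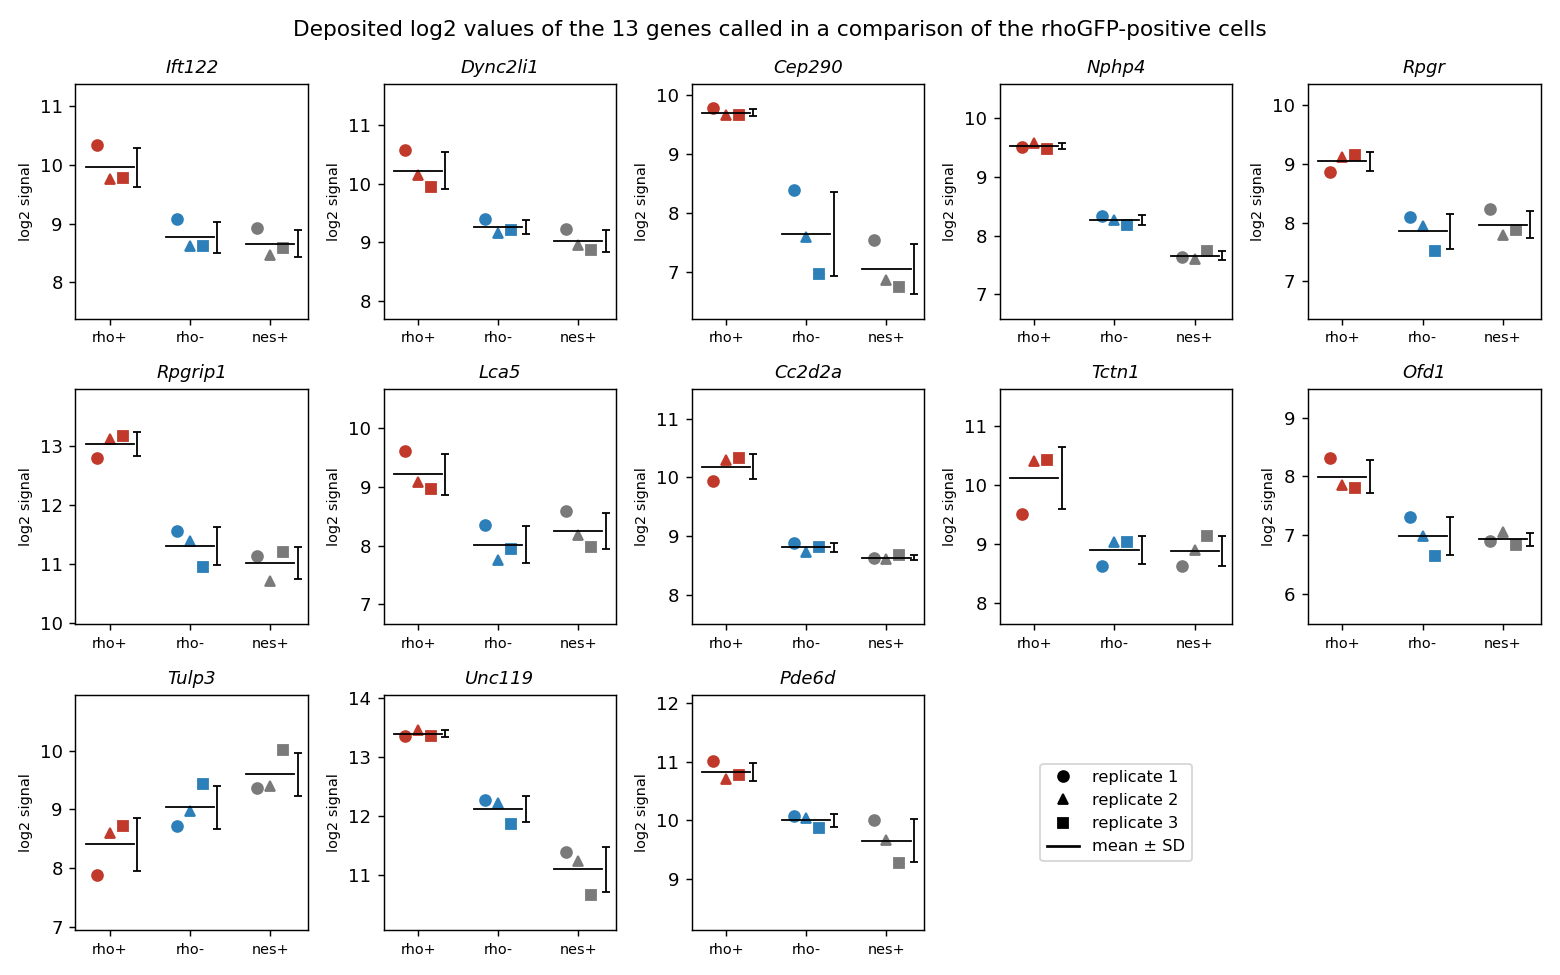
Deposited log2 values (vertical axis, 4 log2 units in each panel) of the 13 genes called in either comparison of the rhoGFP-positive cells, with replicate numbers as symbols and the mean ± SD of 3 arrays in black; rho+ is rhoGFP-positive, rho- rhoGFP-negative and nes+ nestinGFP-positive. In 12 panels the 3 rhoGFP-positive arrays lie above all 6 others; Tulp3 runs the other way and its P4 groups overlap.

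Carriers differed among themselves. Unc119 binds acylated proteins such as the rod transducin alpha subunit and Pde6d binds prenylated ones such as the rod phosphodiesterase, and the small GTPase Arl3 releases both kinds of cargo inside the cilium. Unc119 stood at 13.35, 13.47 and 13.37 on the rhoGFP-positive arrays, 12.27, 12.22 and 11.87 on the rhoGFP-negative arrays and 11.38, 11.24 and 10.66 on the nestinGFP-positive arrays. Its 3 groups did not overlap, and it rose by 1.28 ± 0.19 (limma adjusted p = 0.000724) against the rhoGFP-negative and by 2.31 ± 0.19 (4.94-fold, adjusted p = 1.30e-05) against the nestinGFP-positive cells. The difference between the latter groups, 1.03 ± 0.19 (adjusted p = 0.0293), was past the threshold by little. That call was lost without rhoGFP-positive replicate 2 or 3, rhoGFP-negative replicate 1 or 2, or nestinGFP-positive replicate 2 or 3 (0.81 to 1.10, adjusted p up to 0.111).

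Pde6d gave 11.005, 10.71 and 10.77 on the rhoGFP-positive arrays, 10.08, 10.05 and 9.88 on the rhoGFP-negative arrays and 10.01, 9.67 and 9.28 on the nestinGFP-positive arrays. It rose against the nestinGFP-positive cells (1.17 ± 0.18, limma adjusted p = 0.000546) and was at 0.83 ± 0.18 (adjusted p = 0.00671) against the rhoGFP-negative cells. Without nestinGFP-positive replicate 3 the former was 0.99. Arl3 was at 0.60 ± 0.15 (adjusted p = 0.0157) and 0.38 ± 0.15 (adjusted p = 0.0792). Inpp5e, the phosphatase that keeps the ciliary membrane poor in a phosphoinositide, was at -0.12 ± 0.13 and -0.15 ± 0.13, with an adjusted p of 0.612 and 0.424.

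Tulp3, which couples membrane receptors to IFT-A for entry into primary cilia, was the 1 gene of the 40 that fell by the 2-fold rule in any of the 3 comparisons. It read 7.89, 8.60 and 8.72 on the rhoGFP-positive arrays, 8.71, 8.97 and 9.44 on the rhoGFP-negative arrays and 9.37, 9.40 and 10.01 on the nestinGFP-positive arrays. The rhoGFP-positive arrays lay below the nestinGFP-positive arrays (-1.19 ± 0.27, limma adjusted p = 0.00631), and the P4 groups overlapped (-0.63 ± 0.27, adjusted p = 0.127). Within each of the 3 replicate numbers the rhoGFP-positive array was the lower of the P4 pair, and the adjusted p with the block was 0.00468. The call was lost without rhoGFP-positive replicate 1 (-0.93) or nestinGFP-positive replicate 3 (-0.98). Its 2 other probe sets were at 0.005 and -0.08 in the same comparison, and the mean of all 3 was at -0.42.

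Within the IFT-A complex 1 of 5 genes rose in each comparison of the rhoGFP-positive cells, and 3 of 5 were higher at an adjusted p below 0.05. Ift122, a core subunit, stood at 10.33, 9.75 and 9.78 on the rhoGFP-positive arrays, 9.07, 8.61 and 8.62 on the rhoGFP-negative arrays and 8.92, 8.47 and 8.58 on the nestinGFP-positive arrays. Replicate 1 was the high array of each group, and the rhoGFP-positive arrays lay above all others (1.18 ± 0.20, limma adjusted p = 0.00172, and 1.30 ± 0.20, adjusted p = 0.000626). Without rhoGFP-positive replicate 1 the P4 difference was 0.995, under the minimum. Wdr19 (0.96 ± 0.13 and 0.89 ± 0.13) and Wdr35 (0.88 ± 0.11 and 0.73 ± 0.11), subunits with propeller domains, had an adjusted p of at most 0.000526 in both comparisons and no call. The peripheral subunit Ttc21b was at 0.51 and 0.43 (adjusted p = 0.0643 and 0.0871; 0.0334 between the P4 fractions with the block). Ift140 was at 0.20 and -0.11, with arrays that overlapped between all groups.

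Of the 9 IFT-B genes, limma called 0 in either comparison of the rhoGFP-positive cells, while 5 of 9 were higher at an adjusted p, and also at an unadjusted p, below 0.05 in each. The median difference was 0.47 between the P4 fractions and 0.59 against the nestinGFP-positive cells. Ift81, which binds tubulin cargo together with Ift74, gave 10.66, 10.72 and 10.69 on the rhoGFP-positive arrays, 9.99, 9.74 and 9.83 on the rhoGFP-negative arrays and 9.91, 9.80 and 9.81 on the nestinGFP-positive arrays. These groups were tight and the rhoGFP-positive arrays stood apart, with differences of 0.84 ± 0.10 (1.79-fold, adjusted p = 0.000223) and 0.85 ± 0.10. Ift57 was at 0.82 and 0.64, Ift80 at 0.81 and 0.66 and Ift88, a core subunit whose loss blocks cilium assembly, at 0.73 and 0.59. All 3 had an adjusted p below 0.05 in both comparisons.

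Other IFT-B subunits did not follow them in both comparisons. Ift74 was at 0.47 (adjusted p = 0.0409) and 0.13 (0.505), and Ift20, which also works at the Golgi, at 0.24 (0.306) and 0.61 (0.00995). The large subunit Ift172 was at 0.29 and -0.01, the GTPase Ift27 at 0.18 and -0.08, and the core subunit Ift52 at -0.23 and -0.06, with adjusted p values from 0.301 to 0.974. In Ift27 and Ift52 the rhoGFP-positive arrays overlapped with those of both other groups.

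Motor subunits split. Of 6 genes limma called 0 between the P4 fractions (3 higher and 1 lower at an unadjusted p below 0.05) and 1 higher against the nestinGFP-positive cells. That gene, Dync2li1, the light intermediate chain of the retrograde dynein, read 10.57, 10.14 and 9.95 on the rhoGFP-positive arrays, 9.40, 9.16 and 9.22 on the rhoGFP-negative arrays and 9.23, 8.96 and 8.87 on the nestinGFP-positive arrays. All rhoGFP-positive arrays were above the others, by 0.96 ± 0.17 (limma adjusted p = 0.00227) and 1.20 ± 0.17 (adjusted p = 0.000359). The heavy chain Dync2h1 was at 0.48 ± 0.20 and 0.33 ± 0.20, with overlapping arrays, and had an adjusted p of 0.129 between the P4 fractions (0.00856 with the block).

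The outward motor, heterotrimeric kinesin-2, is built from Kif3a, Kif3b and the accessory subunit Kifap3. Kif3a gave 8.42, 8.75 and 8.89 on the rhoGFP-positive arrays, 8.85, 9.09 and 9.52 on the rhoGFP-negative arrays and 9.56, 9.69 and 9.54 on the nestinGFP-positive arrays. It was lowest in the rhoGFP-positive cells, at -0.47 ± 0.18 (limma adjusted p = 0.0937) and -0.91 ± 0.18 (adjusted p = 0.00294), the latter without overlap and under the 2-fold minimum. Between the P4 fractions it was lower within all 3 replicate numbers, with an adjusted p of 0.0268 with the block. Kif3b read 8.12, 8.71 and 8.61 on the rhoGFP-positive arrays, 7.05, 7.89 and 7.89 on the rhoGFP-negative arrays and 7.38, 7.82 and 7.60 on the nestinGFP-positive arrays, and was at 0.87 ± 0.24 and 0.88 ± 0.24 (adjusted p = 0.0268 and 0.0186). Kifap3 was at 0.05 ± 0.12 and 0.08 ± 0.12. Kif17, the homodimeric ciliary kinesin, was at 0.25 ± 0.14 and 0.46 ± 0.14 (adjusted p = 0.254 and 0.0251).

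The array carries several probe sets for 19 of the 40 genes, 30 beside those used, and these gave a second reading of the same samples. Of the 30, 25 had the sign of the used probe set between the P4 fractions and 26 against the nestinGFP-positive cells. Called higher were 4 of 30 and 6 of 30, where 3.17% and 4.68% of all 34945 single-symbol probe sets were, and 0 of 30 were called lower in either by limma, where 5.89% and 8.91% were. Between the rhoGFP-negative and nestinGFP-positive cells, limma called 0 of 30 higher and 0 lower, where 0.217% and 0.389% of all probe sets were. There, 23 of the 30 had the sign of the used probe set. All 4 probe sets of Rpgrip1 rose in both comparisons, by 1.73 to 2.60 between the P4 fractions and by 2.02 to 3.27 against the nestinGFP-positive cells, and the used probe set gave the smallest difference of the 4. Both probe sets of Ift122 rose, by 1.18 and 1.23 in the first. The second probe set of Nphp4 was at 0.23 and 0.42 with a mean signal of 5.73, that of Lca5 at 0.77 and 0.94.

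For Kif3a all 4 probe sets were below 0, from -0.47 to -0.08 between the P4 fractions and from -0.91 to -0.64 against the nestinGFP-positive cells. For Kif3b all 4 were above 0, from 0.44 to 0.87 in the first and from 0.12 to 1.37 in the second, where 2 were called higher. The signs of these partner subunits were opposite on each of their 4 probe sets in both comparisons, all read from the same samples. Between the P4 fractions the limma adjusted p ran from 0.117 to 0.897 for Kif3a and from 0.0195 to 0.111 for Kif3b. Against the nestinGFP-positive cells it ran from 0.00451 to 0.0816 for Kif3a and from 0.000619 to 0.600 for Kif3b. Whether Kif3a and Kif3b differ from each other in their response was not tested.

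**Figure D5:**
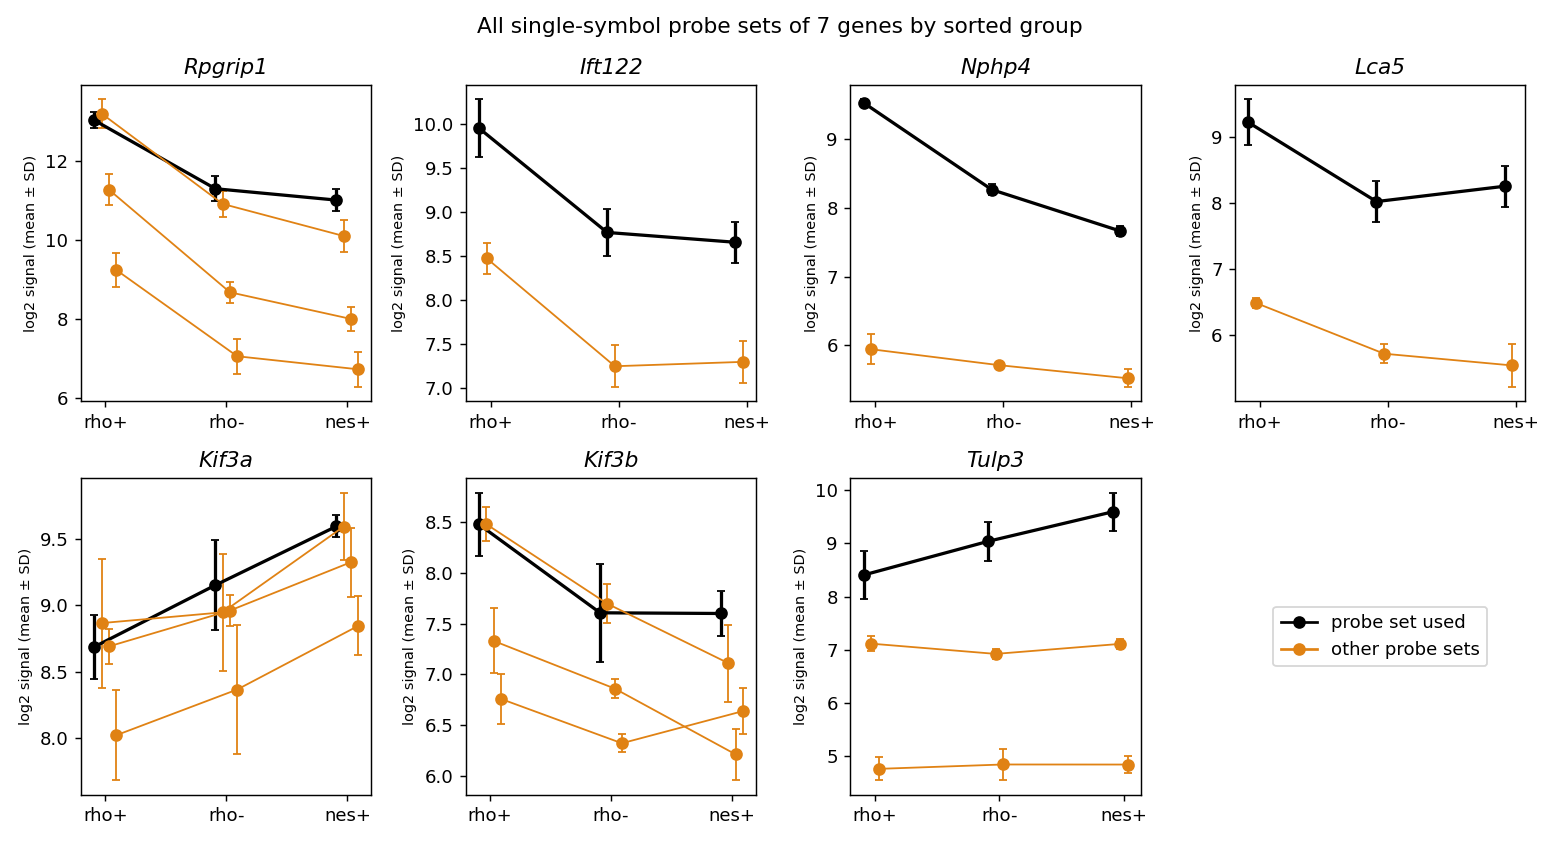
Mean log2 signal ± SD (vertical axis, 3 arrays a group) of every single-symbol probe set of 7 genes in the rhoGFP-positive (rho+), rhoGFP-negative (rho-) and nestinGFP-positive (nes+) cells, with the probe set used in black and the others in orange. The 4 probe sets of Rpgrip1 run downward from left to right, those of Kif3a upward, and 2 of the 3 of Tulp3 stay within 0.2 log2 units between the rhoGFP-positive and nestinGFP-positive cells.

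Promoter windows from RefSeq, 250 bases before to 50 after the annotated start on GRCm38.p6, were held for 36 of the 42 genes. They were read because many of these genes were higher in the same cells and because RFX factors, which bind the X-box, are known regulators of ciliary genes, while CRX and NRL drive photoreceptor genes. The core RFX motif GTTGCC, on either strand, lay in the windows of 17 of 36 genes (47.2%), against 14.7% of the 14452 tested genes with a window. A full X-box, GTTNCC followed by GGNAAC after 0 to 3 bases (a palindrome that may contain the core motif), lay in 4 of 36 (11.1%), against 1.07%. The CRX core TAATCC was in 2 of 36 (5.56%, against 7.29%) and the NRL core motif TGCTGAC in 2 of 36 (5.56%, against 4.94%). The 36 include Arl13b, which is not among the tested genes and held both the core RFX and the NRL motif. Of 9 genes with a window that rose between the P4 fractions, 3 held the core RFX motif and 2, Rpgrip1 and Unc119, the CRX core. A match is a run of letters and not evidence of binding.

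Of the full X-boxes, 3 are shown, in the windows chr10:20952297-20952596 (Ahi1, plus strand), chr11:87852965-87853264 (Mks1, plus strand) and chr5:122264411-122264710 (Tctn1, minus strand). They stand in capitals with up to 10 flanking bases, read along each gene's strand, and were chosen as matches to the whole motif. The Mks1 box begins 24 bases before the annotated start, and those of Ahi1 and Tctn1 begin 21 and 36 bases after it.
Ahi1: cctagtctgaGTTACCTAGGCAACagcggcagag
Mks1: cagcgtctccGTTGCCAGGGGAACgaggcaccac
Tctn1: ggctgtgactGTTGCCCGGGCAAC

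The windows of the 5 genes that rose between the P4 fractions and hold any of these motifs follow, 5′ to 3′, with the motifs in capitals and in order of the size of the rise. Those of Rpgrip1 (chr14:52110653-52110952, plus strand) and Unc119 (chr11:78345334-78345633, plus strand) (1 of 3 windows of that gene) hold the CRX core on the opposite strand, 28 and 118 bases before the start. Nphp4 (chr4:152477892-152478191, plus strand) and Lca5 (chr9:83441078-83441377, minus strand) hold the core RFX motif 1 and 34 bases after it, and Tctn1 (chr5:122264411-122264710, minus strand) the full X-box. Cep290, Cc2d2a, Rpgr and Ofd1 had no match in these windows.
Rpgrip1: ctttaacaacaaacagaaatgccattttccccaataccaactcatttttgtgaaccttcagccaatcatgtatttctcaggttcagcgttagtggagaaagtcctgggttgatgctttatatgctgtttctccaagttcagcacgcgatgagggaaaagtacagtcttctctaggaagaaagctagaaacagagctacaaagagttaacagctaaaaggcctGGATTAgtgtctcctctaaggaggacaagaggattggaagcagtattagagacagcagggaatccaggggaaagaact
Unc119: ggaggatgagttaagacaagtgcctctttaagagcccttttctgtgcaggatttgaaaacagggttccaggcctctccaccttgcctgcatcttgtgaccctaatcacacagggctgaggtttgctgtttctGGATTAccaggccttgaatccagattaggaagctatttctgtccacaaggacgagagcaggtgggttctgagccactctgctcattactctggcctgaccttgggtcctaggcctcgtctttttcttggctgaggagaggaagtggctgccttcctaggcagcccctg
Nphp4: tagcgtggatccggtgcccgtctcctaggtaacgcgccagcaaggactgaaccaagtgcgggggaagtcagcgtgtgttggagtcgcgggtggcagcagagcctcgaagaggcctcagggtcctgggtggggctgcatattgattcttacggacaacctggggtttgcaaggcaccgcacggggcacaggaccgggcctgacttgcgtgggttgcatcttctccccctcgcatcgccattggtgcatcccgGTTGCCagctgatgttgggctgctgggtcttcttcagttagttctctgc
Tctn1: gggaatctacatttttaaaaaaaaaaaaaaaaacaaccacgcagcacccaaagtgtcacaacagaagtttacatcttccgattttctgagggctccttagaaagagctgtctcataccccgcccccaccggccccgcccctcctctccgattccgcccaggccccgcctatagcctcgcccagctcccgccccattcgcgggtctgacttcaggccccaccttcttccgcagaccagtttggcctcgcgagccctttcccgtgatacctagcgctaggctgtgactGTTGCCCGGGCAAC
Lca5: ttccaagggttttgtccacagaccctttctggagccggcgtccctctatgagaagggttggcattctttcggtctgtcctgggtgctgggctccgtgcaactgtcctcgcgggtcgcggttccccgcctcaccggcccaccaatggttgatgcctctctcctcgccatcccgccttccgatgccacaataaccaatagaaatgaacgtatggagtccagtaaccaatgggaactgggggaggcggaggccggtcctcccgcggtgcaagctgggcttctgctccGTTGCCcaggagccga

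Beyond the 42 genes, 58 other genes of cilium transport, the ciliary gate and the photoreceptor axoneme were measured. Between the P4 fractions 17 of 58 (29.3%) rose and 3 (5.17%) fell, where 3.61% and 7.32% of all genes did, with a median of 0.41. Against the nestinGFP-positive cells 15 (25.9%) rose and 4 (6.90%) fell, where 5.06% and 10.5% of all genes did. With no minimum size, 25 of 58 were higher and 9 lower between the P4 fractions at a limma adjusted p below 0.05. Of all genes, 10.1% and 14.2% were. The counts against the nestinGFP-positive cells were 26 and 11, where 16% and 19.8% of all genes were. The 4 largest rises between the P4 fractions were in Rp1l1 (3.93 ± 0.27, limma adjusted p = 9.31e-06) and Rp1 (3.51 ± 0.68), microtubule-associated proteins of the rod axoneme, in Tub (3.32 ± 0.28), the tubby protein, and in Fam161a (3.28 ± 0.16), a microtubule-binding protein of the connecting cilium. Rp1 was also among the rod markers. The 3 that fell between the P4 fractions were Dzip1 (-2.14 ± 0.17, adjusted p = 2.37e-05) and its relative Dzip1l (-1.09 ± 0.33), which act at the base of the cilium in ciliogenesis, and Tedc1 (-1.07 ± 0.26), a centriole protein.

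The same 58 include partners of the genes described above, grouped here after their values were seen. Of 9 further IFT-B genes 2 rose between the P4 fractions, Ttc30b (1.57) and Ttc30a1 (1.08), which share sequence. The other 7, Hspb11, Ift22, Ift46, Ttc26, Traf3ip1, Cluap1 and Ttc30a2, were not called and ran from -0.11 (Ift46) to 0.62 (Hspb11). Of 3 dynein chains, Wdr60 (1.58 ± 0.16) and Wdr34 (1.05 ± 0.15) rose between the P4 fractions and Tctex1d2 (0.50) was not called; against the nestinGFP-positive cells Wdr60 rose (2.09) and Wdr34 was at 0.95. Of 11 genes of the gate and the neighbouring inversin compartment, 4 rose between the P4 fractions, Tmem237 (1.46), Tmem17 (1.29), Tmem107 (1.16) and B9d1 (1.06). The other 7 were not called: Tctn3 was at 0.93, Tmem231 at 0.92, Tmem138 at 0.76, Tmem216 at 0.30, B9d2 at -0.12, Invs at -0.30 and the kinase Nek8 at -0.61 (limma adjusted p = 0.0208, with the rhoGFP-positive arrays below the rhoGFP-negative). The kinase Mak, which acts on the photoreceptor axoneme, rose by 1.60 ± 0.21 and, like Unc119, was higher in the rhoGFP-negative than in the nestinGFP-positive cells (1.13 ± 0.21, limma adjusted p = 0.0306). It was the 1 of the 58 called higher there, and limma called 0 lower, where 0.385% and 0.605% of all genes were called. At an unadjusted p below 0.05, 8 of the 58 were higher and 9 lower there, where 1502 and 1783 of all 18193 genes were. With the replicate number as a block, 3 of the 58 were called higher and 1 lower, without a share of all genes to set beside them.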

How the data were processed

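RNA of 9 sorted cell pools was measured on 1-colour Affymetrix-type arrays, from biotin-labelled cRNA made out of 200 ng of total RNA, per the labels' protocols. The authors deposited log2 signals, made with RMA according to the submitters' processing notes (version not stated there). RMA quantile-normalizes arrays and compresses low signals, so that differences of dim genes are understated. No detection calls or scan batches are given, and precision is set by the number of arrays (median SE 0.14 log2 units).

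Of 45101 probe sets, 34945 were tied to 1 gene symbol, updated by Entrez ID. A gene was read from its probe set with the highest mean, which gave 18193 genes. One limma fit (version 3.58.1, R 4.3.3; lmFit, eBayes, two-sided) held the 3 group means. P-values were adjusted after Benjamini and Hochberg over all 18193 genes, and a call needed both an adjusted p below 0.05 and a change of 1 or more on the log2 scale. P-values measure the spread between the pooled samples. The steps were tested on simulated data. Figures were drawn with matplotlib 3.10.9. The members and lists were chosen with earlier results of these data known.

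Values on every array are printed for members called in a comparison of the rhoGFP-positive cells, and for some others chosen after their values were seen. Replicate numbers occur in all groups, with no label for a shared pool. Same-numbered arrays deviated from their group means with correlations of 0.62, 0.45 and 0.45 between the P4 fractions, of 0.54, 0.16 and 0.23 for rhoGFP-negative with nestinGFP-positive cells, and of 0.52, -0.01 and 0.25 for rhoGFP-positive with nestinGFP-positive cells. No pairing entered the main fit, and the replicate number was a block only in an alternative fit, run for all 3 comparisons. Arrays unlike in number had correlations from -0.49 to 0.07 between the P4 fractions. These ran from -0.39 to 0.22 for rhoGFP-negative with nestinGFP-positive cells, and from -0.45 to 0.39 for rhoGFP-positive with nestinGFP-positive cells. The 0.22 and the 0.39 were for replicate 2 of the rhoGFP cells with replicate 3 of the nestinGFP-positive cells. Alternatives were other normalizations, probe set choices, filters, variance models, thresholds, the block, and leaving out each array. The sequence of 1 further promoter match is not reported here.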

Additional observations from a re-analysis of the deposited data

How the results depend on the processing

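Over 21 alternatives, 459 of 483 recomputed results of called genes kept their call, 24 lost it and 0 changed sign. These are not separate checks, since the alternatives reuse the same arrays. Of the 24, 10 were for Unc119 between the rhoGFP-negative and nestinGFP-positive cells. With each array left out, the genes that rose between the P4 fractions numbered 9 to 12 (0 fell in each) with a median of 0.67 to 0.80. Against the nestinGFP-positive cells 10 to 12 rose and 0 to 2 fell, with a median of 0.58 to 0.61. For the rhoGFP-negative against the nestinGFP-positive cells 0 to 1 rose and 0 fell, with a median of -0.13 to -0.02.

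The replicate block changed no call of the 40 genes at the 2-fold rule; with no minimum difference it gave 29 higher and 2 lower between the P4 fractions and 29 higher and 2 lower against the nestinGFP-positive cells (20.6% and 23.6% of all genes), and 2 higher and 1 lower in the third comparison, a setting chosen after seeing the data. Among the 58 other cilium genes the block at the 2-fold rule gave 3 higher and 1 lower, in place of 1 and 0, for the rhoGFP-negative against the nestinGFP-positive cells. The share of all genes called under the block at that rule is not given here. In that comparison 0 of the 40 genes were called after cyclic loess, with only the 6 arrays compared, at an adjusted p below 0.01 and without the 3 replicate 1 arrays, and 0 of the 58 were called higher with only the 6 arrays. With the mean of probe sets the P4 median was 0.62 and 0 genes fell against the nestinGFP-positive cells. Quantile normalization gave medians of 0.66 for the rhoGFP-positive and -0.012 for the rhoGFP-negative against the nestinGFP-positive cells. With no minimum difference 27 were higher between the P4 fractions, 26 higher and 2 lower against the nestinGFP-positive cells, and 2 higher in the third comparison. The cause of these shifts was not tested. Genes near the 2-fold minimum crossed it in both directions, with Tctn2 (0.90 to 1.06) and Wdr19 (0.87 to 1.03) between the P4 fractions among those called under some alternatives.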

Other observations

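Genes of motile cilia, which photoreceptor cilia are not, were mixed: of 10 measured, 1 rose and 1 fell between the P4 fractions, where 3.61% and 7.32% of all genes did. Their mean signal per array was 5.38 to 5.49 on the rhoGFP-positive arrays, 5.58 to 5.68 on the rhoGFP-negative arrays and 5.71 to 5.87 on the nestinGFP-positive arrays. Ccdc39, an axonemal assembly factor, rose by 1.13 (limma adjusted p = 0.00159), and Tekt1, a filament protein of axonemes, was at -1.46 (adjusted p = 0.000362).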
